A study of Arabidopsis thaliana with 4 samples.

Results

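Catalases and ascorbate peroxidases are the main enzymes that remove hydrogen peroxide in plant cells. The 8 genes described here are the 3 catalase genes and the 5 classical ascorbate peroxidase genes of *Arabidopsis thaliana*, chosen by gene code from the 23049 genes that had at least 1 read in any library. They are CAT1 (AT1G20630), CAT2 (AT4G35090), CAT3 (AT1G20620), APX1 (AT1G07890), APX2 (AT3G09640), APX3 (AT4G35000), sAPX (AT4G08390) and tAPX (AT1G77490). Of the 8 genes, 7 passed the filter of a mean of at least 1 CPM (counts per M reads of the library's total), as did 17218 genes in all. APX2 did not pass it.

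RNA was sequenced from the leaves of plants 2 weeks old, in 1 library for each of 4 combinations of labels. The labels name the libraries sme1-1 at 4 °C, sme1-1 at 20 °C, Col-0 at 4 °C and Col-0 at 20 °C, where sme1-1 is a mutant line in the Col-0 background and Col-0 is the wild type. SmE1 is a subunit of the Sm ring of the spliceosome, and the labels do not describe the lesion in sme1-1. All plants grew on soil in long days at 90 µmol m-2 s-1. Those labelled 4 °C spent 24 h in the cold at 40 µmol m-2 s-1, so light and temperature differ together. With 1 library per combination, no difference between 2 libraries could be compared with a spread between replicates. Nothing in the labels says how many plants were pooled.

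Catalases split hydrogen peroxide into water and oxygen without any other substrate, and they sit mostly in peroxisomes. In leaves, much of that hydrogen peroxide comes from glycolate oxidases during photorespiration. Ascorbate peroxidases reduce hydrogen peroxide with ascorbate, which is then regenerated through dehydroascorbate reductases, monodehydroascorbate reductases and glutathione. CAT2 is the chief leaf catalase, CAT3 is known for expression in vascular tissue and late in the day, and CAT1 for pollen and seeds. APX1 and APX2 are cytosolic, APX3 is bound to peroxisomal membranes, sAPX lies in the chloroplast stroma and mitochondria, and tAPX on the thylakoid membrane.

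The libraries held 44.6 M to 47.2 M uniquely mapped reads in genes. SME1 (AT2G18740), the gene named by the mutant, checks the labels. It was read at 0.919 and 27.8 CPM in the libraries labelled sme1-1 at 4 °C and at 20 °C, against 0.679 and 14.7 CPM in those labelled Col-0 at 4 °C and at 20 °C. SME1 thus went against the labels: it was low in both libraries labelled 4 °C, whichever genotype they were labelled with. The cold-induced gene COR15A was read at 6272 and 5092 CPM in the libraries labelled sme1-1 at 4 °C and at 20 °C, against 30.1 and 25.9 CPM in those labelled Col-0 at 4 °C and at 20 °C. COR15A was thus high in both libraries labelled sme1-1, whichever temperature they were labelled with. Every library is therefore called by its label, and every direction below is a direction between labels, not an effect of the mutation or of cold. Leaf identity was plain in every library: the 3 mesophyll markers summed to 59200 to 66324 CPM. The 3 root markers summed to at most 0.0889 CPM and the 2 seed markers to at most 0.178 CPM. The 4 flower markers summed to 0.513 and 0.711 CPM in the libraries labelled sme1-1 at 4 °C and at 20 °C. In those labelled Col-0 they summed to 1.38 and 1.59 CPM.

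The start regions of 3 members are shown because they carry the contrasts that follow: CAT2 is the most abundant member, CAT3 the member furthest apart between temperature labels in the libraries labelled sme1-1, and APX2 the member with almost no reads. Each is the 250 bases before the gene's annotated start, from RefSeq's annotation of TAIR10.1, 5′ to 3′ on the gene's strand. CAT2 is chr4:16703505-16703754, minus strand; CAT3 is chr1:7142722-7142971, plus strand; APX2 is chr3:2955906-2956155, plus strand. Capitals mark matches to 5 motifs searched on both strands: the heat shock element cores GAANNTTC and TTCNNGAA, the G-box CACGTG, the evening element AAAATATCT and the cold-response core CCGAC.
CAT2: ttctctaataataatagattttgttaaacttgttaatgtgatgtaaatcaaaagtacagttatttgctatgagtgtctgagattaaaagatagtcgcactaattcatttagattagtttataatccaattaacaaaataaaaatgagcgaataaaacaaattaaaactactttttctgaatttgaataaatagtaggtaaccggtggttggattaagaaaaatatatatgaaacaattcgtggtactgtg
CAT3: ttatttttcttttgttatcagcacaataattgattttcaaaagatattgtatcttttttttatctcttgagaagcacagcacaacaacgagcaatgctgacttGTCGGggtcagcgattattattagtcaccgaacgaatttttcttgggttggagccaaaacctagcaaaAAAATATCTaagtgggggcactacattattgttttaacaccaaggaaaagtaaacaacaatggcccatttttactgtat
APX2: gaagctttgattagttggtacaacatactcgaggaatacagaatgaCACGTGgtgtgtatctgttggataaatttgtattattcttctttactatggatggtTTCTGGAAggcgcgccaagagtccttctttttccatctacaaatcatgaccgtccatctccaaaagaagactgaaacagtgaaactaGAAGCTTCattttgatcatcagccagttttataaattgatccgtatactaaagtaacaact
The CAT2 window holds none of the 5 motifs. The CAT3 window holds the evening element 79 to 71 bases before the start and the cold-response core, on the other strand, 147 to 143 bases before it. Among 27443 windows of the same length, 2.36% hold the evening element and 12.0% the cold-response core. The APX2 window holds GAANNTTC (9.55% of all windows), TTCNNGAA (7.68%) and the G-box (6.49%). Elsewhere among the members, APX1 has GAANNTTC, APX3 has the G-box in a window that overlaps a neighbouring gene, and CAT1 has TTCNNGAA at 2 places that both lie inside the CAT3 gene. A match describes the letters in this window and shows no binding.

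CAT3 and CAT1 lie next to each other on chromosome 1, on the same strand, with 95 bases between them. The longest run of bases that 2 catalase transcripts share exactly is 32 bases, between CAT1 and CAT2, and the longest between 2 ascorbate peroxidases is 21 bases, between sAPX and tAPX. No 50-base window of 7 of the members' transcripts was found in another gene's transcripts or elsewhere on the nuclear chromosomes. For CAT2, 0.314% of windows were found in either of these. A read of 50 bases would therefore nearly always have had 1 place among the transcripts. The tables carry no strand, so antisense reads cannot be told apart.

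Among the catalases, CAT2 was lower and CAT1 higher in the libraries labelled sme1-1, while CAT3 stood apart in 1 library. CAT2 had 107398 and 115420 reads in the libraries labelled sme1-1 at 4 °C and at 20 °C, against 206023 and 186304 reads in those labelled Col-0 at 4 °C and at 20 °C. Scaled to depth, these were 2295 and 2566 CPM in the libraries labelled sme1-1, against 4369 and 4176 CPM in those labelled Col-0. Both libraries labelled sme1-1 lay below both labelled Col-0. How many of all genes separate in this way was not computed, so such a separation does not set a member apart. In the additive model below, 24.2% of all genes rose and 17.9% fell with the label sme1-1. The CAT2 values were then compared as ratios. The ratio of sme1-1 over Col-0 was 0.525 at the label 4 °C (95% counting interval 0.521 to 0.529) and 0.614 at the label 20 °C. All such intervals on a ratio of 2 libraries are exact. Those on a ratio of ratios are approximate. Both kinds cover counting error only and hold no biological spread.

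CAT1 was the one member at least 2-fold apart by file totals. It had 3241 and 2600 reads (69.2 and 57.8 CPM) in the libraries labelled sme1-1 at 4 °C and at 20 °C, against 1624 and 1068 reads (34.4 and 23.9 CPM) in those labelled Col-0 at 4 °C and at 20 °C. For CAT1 the libraries labelled sme1-1 lay above those labelled Col-0, again with no share over all genes computed. Its ratio of sme1-1 over Col-0 was 2.01 at the label 4 °C (1.89 to 2.14) and 2.41 at the label 20 °C (2.25 to 2.60). The first of these is under 2-fold when libraries are scaled otherwise: 1.87 with TMM factors, 1.88 with DESeq2's size factors and 1.96 without the 10 most abundant genes and the members. With TMM factors and DESeq2's size factors, CAT2 instead was past 2-fold downwards at the label 4 °C, at 0.489 and 0.491.

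CAT3 had 28554 reads in the library labelled sme1-1 at 4 °C, 14907 in that labelled sme1-1 at 20 °C, 17689 in that labelled Col-0 at 4 °C and 15194 in that labelled Col-0 at 20 °C. The corresponding levels were 610, 331, 375 and 341 CPM. The library labelled sme1-1 at 4 °C was alone in being high, and the other 3 lay within 331 to 375 CPM. The share of all genes with such a pattern was not computed. The ratio of 4 °C over 20 °C was 1.84 between the libraries labelled sme1-1 (1.80 to 1.88) and 1.10 between those labelled Col-0. The ratio of these ratios was 1.67 (1.62 to 1.72). With TMM factors it was 1.60 and with DESeq2's size factors 1.61, both below that interval.

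**Figure D1:**
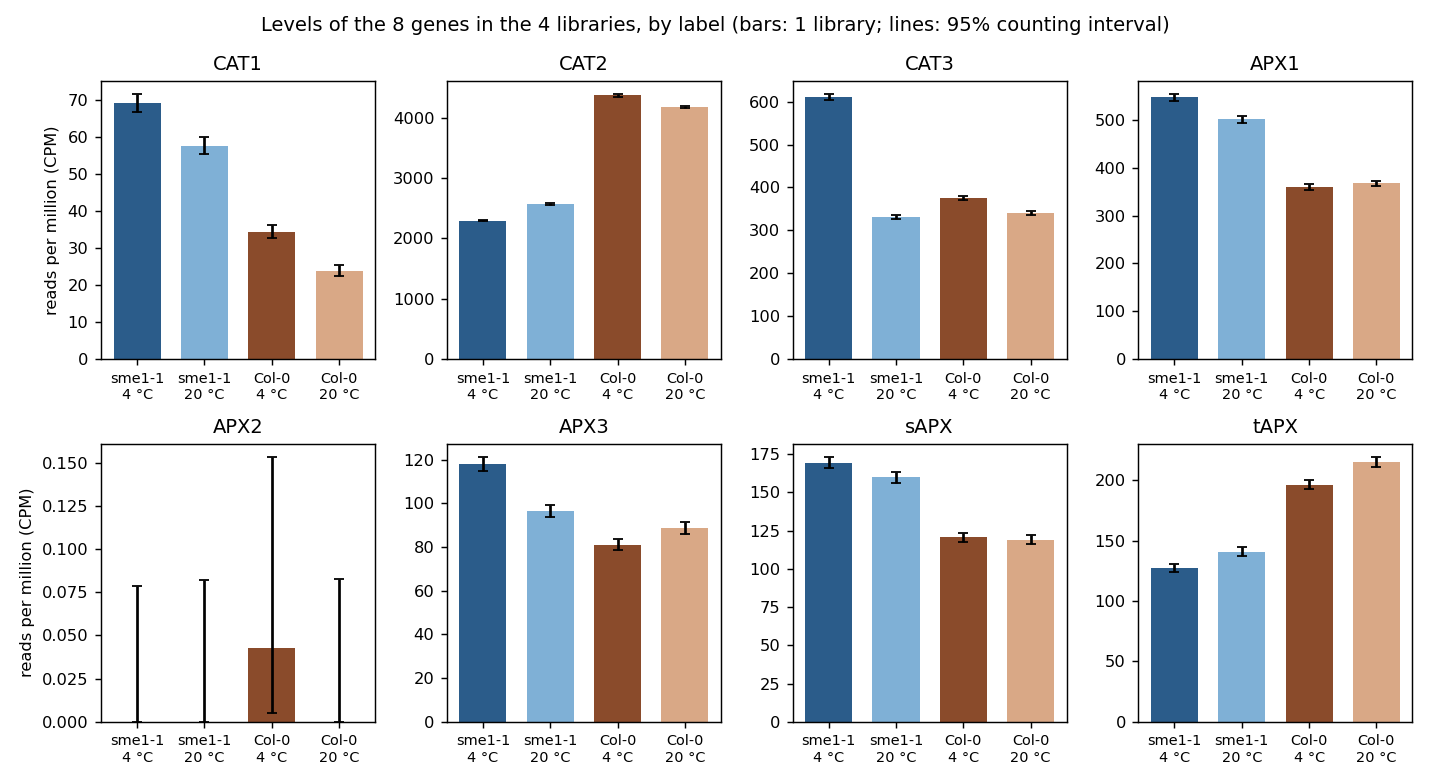
Levels of the 8 genes in reads per M (CPM, linear axes starting at 0, a scale of its own for each gene) in the libraries labelled sme1-1 4 °C, sme1-1 20 °C, Col-0 4 °C and Col-0 20 °C. Each bar is 1 library and the lines are 95% counting intervals. CAT2 and tAPX are lower in both libraries labelled sme1-1, and CAT1, APX1, APX3 and sAPX are higher in both. CAT3 reaches 610 CPM in 1 library, and APX2 has 2 reads in all.

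Some markers of vascular tissue and of the clock differed between the same labels. The 4 vascular markers summed to 184 and 143 CPM in the libraries labelled sme1-1 at 4 °C and at 20 °C, against 96.9 and 91.0 CPM in those labelled Col-0 at 4 °C and at 20 °C. Most of this sum was SUC2, the phloem sucrose transporter, at 156 and 117 CPM in the libraries labelled sme1-1 against 69.1 and 62.6 CPM in those labelled Col-0, in the same order of temperatures. SUC2 was the one of the 4 that rose with the label sme1-1 in the additive model of both labels (edgeR, adjusted p below 0.05). APL, a phloem regulator, was read at 12.9 and 12.9 CPM in the libraries labelled sme1-1 at 4 °C and at 20 °C, against 17.0 and 16.2 CPM in those labelled Col-0, and it did not pass. At the label 20 °C, CAT3 was at 331 CPM in the library labelled sme1-1 and 341 CPM in that labelled Col-0. IRX3, another of the 4, was at 7.80 and 5.54 CPM in the libraries labelled sme1-1 at 4 °C and at 20 °C. In those labelled Col-0 IRX3 was at 5.49 and 5.87 CPM, so like CAT3 it was highest in the library labelled sme1-1 at 4 °C. AST56 was at 6.92 and 7.23 CPM with the label sme1-1, against 5.37 and 6.30 CPM with Col-0, in the same order. Neither IRX3 nor AST56 passed. The clock gene PRR5, active from midday into the evening, was read at 41.1 and 31.3 CPM in the libraries labelled sme1-1 at 4 °C and at 20 °C, against 1.15 and 0.717 CPM in those labelled Col-0. The morning clock gene LHY was read at 272 and 337 CPM in the libraries labelled sme1-1 at 4 °C and at 20 °C, against 709 and 836 CPM in those labelled Col-0. CCA1, the other morning gene of the list, was read at 558 and 592 CPM in the libraries labelled sme1-1 at 4 °C and at 20 °C, against 456 and 506 CPM in those labelled Col-0, and did not pass (log2 0.26 ± 0.16, adjusted p = 0.214 in edgeR). Of 8 clock genes tested, 4 rose and 2 fell with the label sme1-1 in the same model, where 24.2% of all genes rose and 17.9% fell. For the temperature label GI alone of the 8 rose (log2 1.18 ± 0.25, adjusted p = 0.018 in edgeR), where 1.02% of all genes rose. It did not pass with TMM factors. GI was read at 40.3 and 10.5 CPM in the libraries labelled sme1-1 at 4 °C and at 20 °C, against 29.7 and 21.9 CPM in those labelled Col-0. The hour of sampling is not in the labels. The part of vascular tissue or of the clock in the catalase levels was not tested. In whole leaves, fewer cells of a type and less RNA per cell cannot be told apart.

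Per gene length, CAT2 made up most catalase transcript in every library, by a smaller margin in the libraries labelled sme1-1. RPKM (reads per kilobase of gene length and per M reads) allows genes to be compared. CAT2 held 75.0% and 85.4% of the summed catalase RPKM in the libraries labelled sme1-1 at 4 °C and at 20 °C, against 90.4% and 91.0% in those labelled Col-0 at 4 °C and at 20 °C. CAT3 held 22.5% and 12.5% in the libraries labelled sme1-1 at 4 °C and at 20 °C, against 8.77% and 8.39% in those labelled Col-0. CAT1 held 2.53% and 2.15% in the libraries labelled sme1-1, against 0.796% and 0.583% in those labelled Col-0. The order CAT2, CAT3, CAT1 held in all 4 libraries. CAT2 was 3.33 times CAT3 in RPKM in the library labelled sme1-1 at 4 °C and 6.85 times in that labelled sme1-1 at 20 °C, against 10.3 and 10.9 times in those labelled Col-0 at 4 °C and at 20 °C. The catalase sum was 1355 and 1330 RPKM in the libraries labelled sme1-1 at 4 °C and at 20 °C, against 2139 and 2031 RPKM in those labelled Col-0.

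The ascorbate peroxidases went both ways: APX1, sAPX and APX3 were higher and tAPX lower in the libraries labelled sme1-1. APX1, the main cytosolic enzyme, had 25610 and 22554 reads (547 and 501 CPM) in the libraries labelled sme1-1 at 4 °C and at 20 °C, against 16975 and 16399 reads (360 and 368 CPM) in those labelled Col-0 at 4 °C and at 20 °C. Its ratio of sme1-1 over Col-0 was 1.52 at the label 4 °C and 1.36 at the label 20 °C. Both libraries labelled sme1-1 lay above both labelled Col-0, with no share of such separation over all genes computed.

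The 2 chloroplast enzymes moved in opposite directions. The stromal sAPX had 7927 and 7187 reads (169 and 160 CPM) in the libraries labelled sme1-1 at 4 °C and at 20 °C, against 5685 and 5315 reads (121 and 119 CPM) in those labelled Col-0. The thylakoid tAPX had 5941 and 6333 reads (127 and 141 CPM) in the libraries labelled sme1-1 at 4 °C and at 20 °C, against 9255 and 9585 reads (196 and 215 CPM) in those labelled Col-0. Thus sAPX was higher and tAPX lower in both libraries labelled sme1-1, with no share of such separation over all genes computed. The ratios of sme1-1 over Col-0 were 1.40 at the label 4 °C and 1.34 at the label 20 °C for sAPX, and 0.647 and 0.655 for tAPX. In RPKM, tAPX was 0.712 and 0.837 times sAPX in the libraries labelled sme1-1 at 4 °C and at 20 °C, against 1.55 and 1.71 times in those labelled Col-0, so the order of these 2 genes differed between the genotype labels.

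APX3, the peroxisomal enzyme, had 5527 and 4336 reads (118 and 96.4 CPM) in the libraries labelled sme1-1 at 4 °C and at 20 °C, against 3824 and 3959 reads (81.1 and 88.7 CPM) in those labelled Col-0. Its ratio of sme1-1 over Col-0 was 1.46 at the label 4 °C and 1.09 at the label 20 °C. For APX3 too, both libraries labelled sme1-1 lay above both labelled Col-0, with no share of such separation over all genes computed. APX2, a heat- and high-light-induced gene, had 2 reads in the library labelled Col-0 at 4 °C (0.0424 CPM) and 0 in the others. A count of 0 allows up to 0.0641 CPM in the library labelled sme1-1 at 4 °C, 0.0667 CPM in that labelled sme1-1 at 20 °C and 0.0672 CPM in that labelled Col-0 at 20 °C, so no difference in APX2 was detectable at this depth. HSFA2, a heat shock factor known to activate APX2, was itself read at 0.342 and 0.333 CPM in the libraries labelled sme1-1 at 4 °C and at 20 °C, against 2.97 and 2.22 CPM in those labelled Col-0. Of 8 heat shock factor genes tested in the additive model, 4 rose and 1, HSFA2, fell with the label sme1-1, where 24.2% of all genes rose and 17.9% fell. With TMM factors HSFA1D fell as well.

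**Figure D2:**
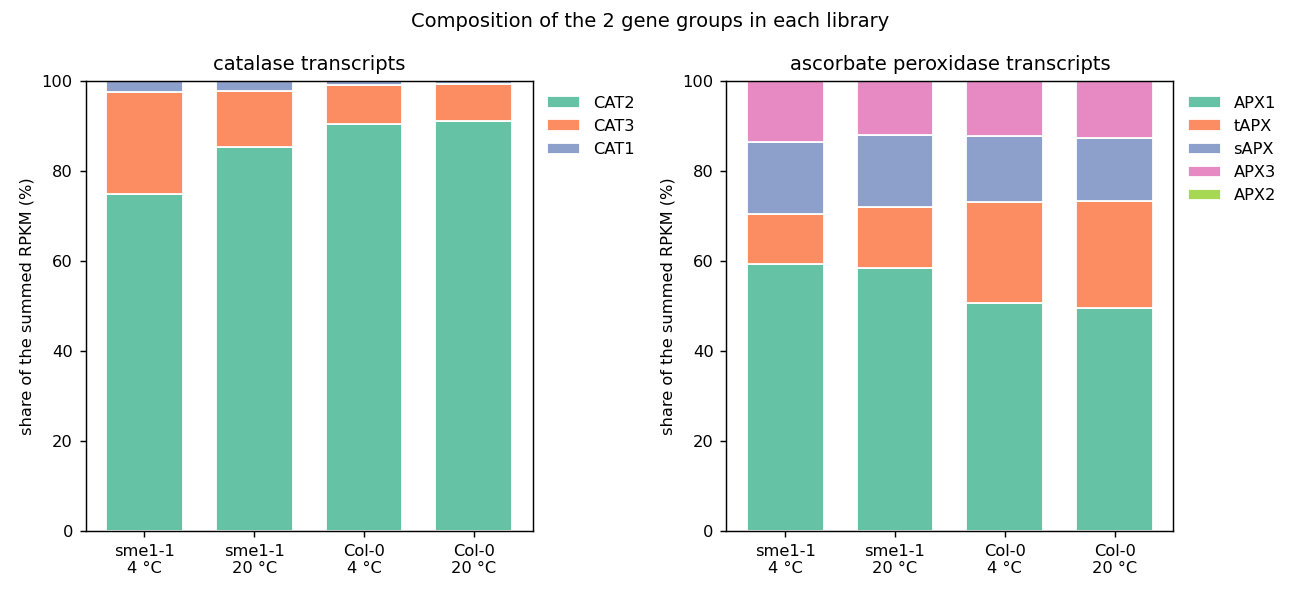
Share of each gene (% of the summed RPKM) among the catalases, left, and the ascorbate peroxidases, right, in the 4 libraries by label, sme1-1 before Col-0. CAT2 held 75.0% of catalase transcript in the library labelled sme1-1 4 °C and 85.4% to 91.0% in the others, and tAPX held 11.2% and 13.4% of the ascorbate peroxidase transcript in the libraries labelled sme1-1 against 22.6% and 23.7% in those labelled Col-0.

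Among the ascorbate peroxidases, APX1 led per gene length in every library, with 59.3% and 58.5% of the summed RPKM in the libraries labelled sme1-1 at 4 °C and at 20 °C, against 50.7% and 49.7% in those labelled Col-0. The share of tAPX was 11.2% and 13.4% in the libraries labelled sme1-1 at 4 °C and at 20 °C, against 22.6% and 23.7% in those labelled Col-0. APX3 held 12.0% to 13.6% and sAPX 13.8% to 16.0% in all 4 libraries. The ascorbate peroxidase sum was 707 and 657 RPKM in the libraries labelled sme1-1 at 4 °C and at 20 °C, against 545 and 567 RPKM in those labelled Col-0. The summed level was thus higher with the label sme1-1 for this group and lower for the catalases.

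The counts of members past 2-fold were set beside those of all genes. At the label 4 °C, 1 member (CAT1) was past 2-fold upwards with the label sme1-1 and 0 were past it downwards, where 11.7% of all genes were past it upwards and 7.75% downwards. At the label 20 °C the counts were again 1 (CAT1) and 0, where 8.94% of all genes were past it upwards and 7.03% downwards. With 7 members tested, these counts lie near the shares over all genes and set the members apart in neither direction. The median log2 ratio of the 7 members that passed the filter was 0.54 at the label 4 °C, where that of all genes was 0.09. At the label 20 °C it was 0.12, where that of all genes was 0.03. TMM scaling lowers every log2 ratio at the label 4 °C by 0.10.

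Between temperature labels 0 members were at least 2-fold apart. For 4 °C over 20 °C in the libraries labelled sme1-1, 3.15% of all genes were past 2-fold upwards and 2.47% downwards, and in those labelled Col-0, 0.796% upwards and 0.778% downwards. CAT3 was furthest from 1 in the libraries labelled sme1-1, at 1.84, and CAT1 in those labelled Col-0, at 1.44 (1.33 to 1.56). APX1 was at 1.09 in the libraries labelled sme1-1 and 0.979 in those labelled Col-0 (0.959 to 1.00). The ratio for sAPX was 1.06 in the libraries labelled sme1-1 and 1.01 in those labelled Col-0 (0.975 to 1.05). For tAPX the ratios were 0.902 and 0.914, and the ratio of these ratios was 0.987 (0.943 to 1.03). For APX3 the ratio was 1.23 in the libraries labelled sme1-1 and 0.914 in those labelled Col-0, a ratio of ratios of 1.34 (1.26 to 1.42).

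**Figure D3:**
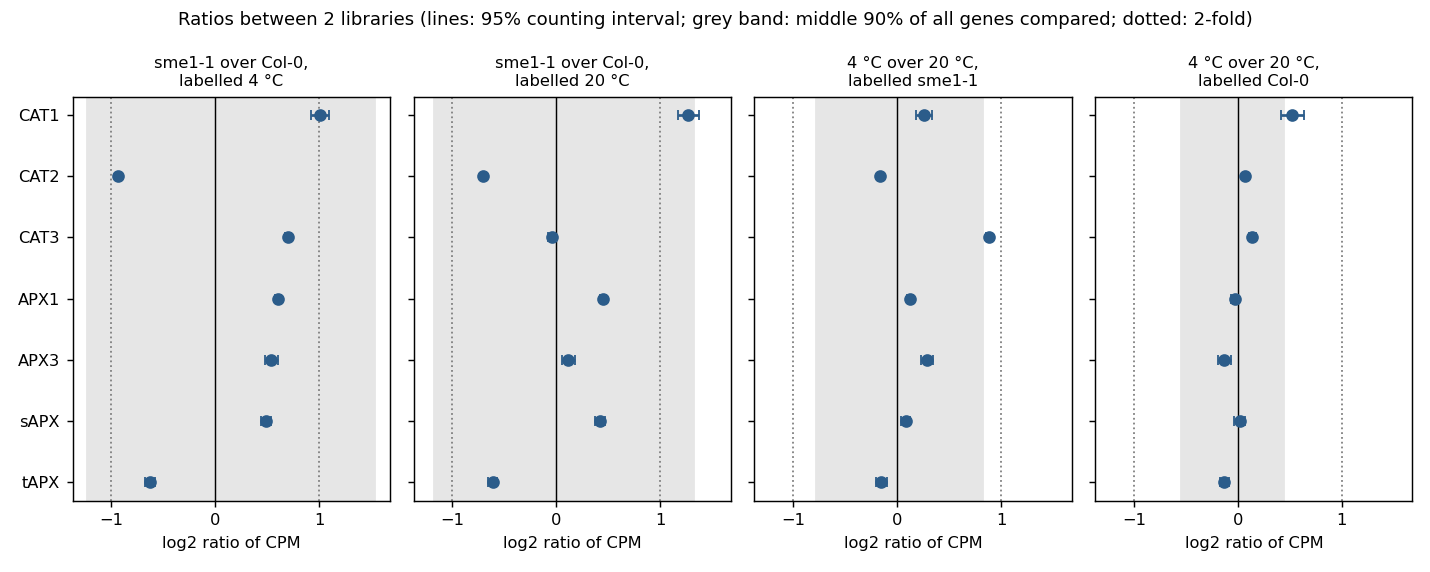
Log2 ratio of CPM between 2 libraries for the 7 members that passed the filter, in 4 panels: sme1-1 over Col-0 at the labels 4 °C and 20 °C, and 4 °C over 20 °C in the libraries labelled sme1-1 and Col-0. Points are single ratios, lines 95% counting intervals, the grey band the middle 90% of the 17218 genes compared and dotted lines 2-fold. CAT1 reaches 2-fold in both panels on the left, and CAT3 in the sme1-1 panel and CAT1 in the Col-0 panel lie outside the grey band.

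An additive model of genotype label and temperature label is the one test over libraries that this design allows. It was fitted to all 17218 genes with edgeR's quasi-likelihood test, and it has 1 residual degree of freedom that holds noise together with any interaction. The test adds 16.3 prior degrees of freedom that come from the other genes. The SEs and p-values therefore rest mostly on variance borrowed across genes, not on each gene's own spread between libraries. With the label sme1-1, 3 members rose (CAT1, APX1 and sAPX) and 2 fell (CAT2 and tAPX) at an adjusted p below 0.05, where 24.2% of all genes rose and 17.9% fell. CAT1 rose by 1.14 ± 0.16 (log2 ± SE, adjusted p = 2.61e-05 in edgeR) and APX1 by 0.53 ± 0.16 (adjusted p = 0.0161). CAT2 changed by -0.82 ± 0.17 (adjusted p = 0.00121 in edgeR) and tAPX by -0.62 ± 0.16 (adjusted p = 0.00485). These 4 genes, and also sAPX and APX3, each differed in the same direction in both pairs of libraries. The model was fitted to the same libraries, so this agreement adds no support to its calls.

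For sAPX the log2 difference was 0.46 ± 0.16 (adjusted p = 0.0283 in edgeR), which did not pass with TMM factors (adjusted p = 0.0648) or in DESeq2 (adjusted p = 0.0898). CAT3 (0.33 ± 0.19, adjusted p = 0.165 in edgeR) and APX3 (0.33 ± 0.17, adjusted p = 0.119) did not pass. For the temperature label 0 members passed in edgeR or DESeq2, where 1.02% of all genes rose and 1.24% fell in edgeR. At an unadjusted p below 0.05 there were 2 in edgeR, CAT3 (0.51 ± 0.19, adjusted p = 0.188) and CAT1 (0.39 ± 0.16, adjusted p = 0.247), and 1 in DESeq2. The share of all genes at that unadjusted threshold was not computed, so these counts do not set the members apart.

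Since SME1 went against the labels of the libraries labelled sme1-1 at 20 °C and Col-0 at 4 °C, the other 2 libraries were also compared alone. The ratio of the library labelled sme1-1 at 4 °C over that labelled Col-0 at 20 °C was 2.89 for CAT1, 0.550 for CAT2, 1.79 for CAT3, 1.49 for APX1, 1.33 for APX3, 1.42 for sAPX and 0.591 for tAPX. The ratio of the library labelled sme1-1 at 20 °C over that labelled Col-0 at 4 °C was 1.68 for CAT1, 0.587 for CAT2, 0.883 for CAT3, 1.39 for APX1, 1.19 for APX3, 1.33 for sAPX and 0.717 for tAPX. CAT3 lay on opposite sides of 1 in these 2 comparisons, and the other members did not. Both ratios set a label sme1-1 over a label Col-0. A gene that follows the genotype label therefore has the same direction in both by construction. The share of all genes with the same direction was not computed, so no conclusion is drawn from the members' agreement.

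Genes of photorespiration and of ascorbate synthesis were among those lower with the label sme1-1. Of 9 glycolate oxidase and photorespiration genes tested, 0 rose and 6 fell in the additive model (HPR, HAOX2, GGT1, GOX1, GOX2 and SHM1), where 24.2% of all genes rose and 17.9% fell. GLDP1 fell as well with TMM factors and in DESeq2. The glycolate oxidase gene GOX1 was read at 1123 and 1151 CPM in the libraries labelled sme1-1 at 4 °C and at 20 °C, against 1962 and 2208 CPM in those labelled Col-0. HPR, the peroxisomal hydroxypyruvate reductase, was read at 316 and 316 CPM in the libraries labelled sme1-1 at 4 °C and at 20 °C, against 900 and 958 CPM in those labelled Col-0. Of the 4 libraries, both labelled sme1-1 were low in CAT2, GOX1 and HPR alike. AGT (log2 -0.28 ± 0.18, adjusted p = 0.224 in edgeR) and HAOX1 (-0.08 ± 0.32, adjusted p = 0.868) of the same list did not pass. The share of all genes low in both was not computed, and a link between CAT2 and photorespiration genes was not tested.

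Of 9 ascorbate and glutathione synthesis genes, 0 rose and 4 fell (VTC2, VTC5, VTC4 and GSH1), where 24.2% of all genes rose and 17.9% fell. GSH1 did not pass without the filter on low counts. VTC2, whose enzyme GDP-L-galactose phosphorylase controls ascorbate synthesis, was read at 274 and 259 CPM in the libraries labelled sme1-1 at 4 °C and at 20 °C, against 1066 and 1311 CPM in those labelled Col-0. Its ratio of sme1-1 over Col-0 was 0.257 at the label 4 °C (0.253 to 0.263) and 0.197 at the label 20 °C (0.194 to 0.201), and its difference in the model was -2.15 ± 0.18 (log2 ± SE, adjusted p = 6.61e-08 in edgeR). VTC5, its paralogue, changed by -1.29 ± 0.16 (adjusted p = 8.28e-06 in edgeR).

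Of 9 genes that recycle ascorbate and glutathione, 1 rose and 1 fell, both dehydroascorbate reductases, where 24.2% of all genes rose and 17.9% fell, so this list held no larger share of calls than all genes. DHAR1 was read at 259 and 171 CPM in the libraries labelled sme1-1 at 4 °C and at 20 °C, against 114 and 108 CPM in those labelled Col-0, a log2 difference of 0.92 ± 0.17 (adjusted p = 0.000428 in edgeR). The plastid enzyme's gene DHAR3 changed by -0.69 ± 0.16 (adjusted p = 0.00226 in edgeR). The other 7 of this list, with every monodehydroascorbate reductase and glutathione reductase gene tested, did not pass.

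Of 13 glutathione peroxidase and peroxiredoxin genes, 2 rose (GPX6 and TPX1) and 5 fell (GPX2, GPX3, 2-Cys Prx B, PRXQ and AT3G52960), where 24.2% of all genes rose and 17.9% fell. GPX3 did not pass in DESeq2 or without the filter on low counts. GPX6 was read at 204 and 103 CPM in the libraries labelled sme1-1 at 4 °C and at 20 °C, against 33.6 and 27.1 CPM in those labelled Col-0, a log2 difference of 2.27 ± 0.19 (adjusted p = 5.83e-08 in edgeR). The chloroplast peroxiredoxin gene 2-Cys Prx B changed by -1.01 ± 0.17 (adjusted p = 0.00014 in edgeR). Of 3 further genes of the ascorbate peroxidase type, TL29, which lies in the thylakoid lumen, and APX6 fell and APX5 did not pass. TL29 was read at 157 and 221 CPM in the libraries labelled sme1-1 at 4 °C and at 20 °C, against 255 and 305 CPM in those labelled Col-0. AT3G54360, which encodes the catalase chaperone NCA1, differed by -0.38 ± 0.16 and did not pass (adjusted p = 0.0612 in edgeR), nor did it in DESeq2 or without the filter, while with TMM factors it fell. For the temperature label 0 genes of these lists of hydrogen peroxide metabolism passed, where only 1.02% of all genes rose and 1.24% fell.

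**Figure D4:**
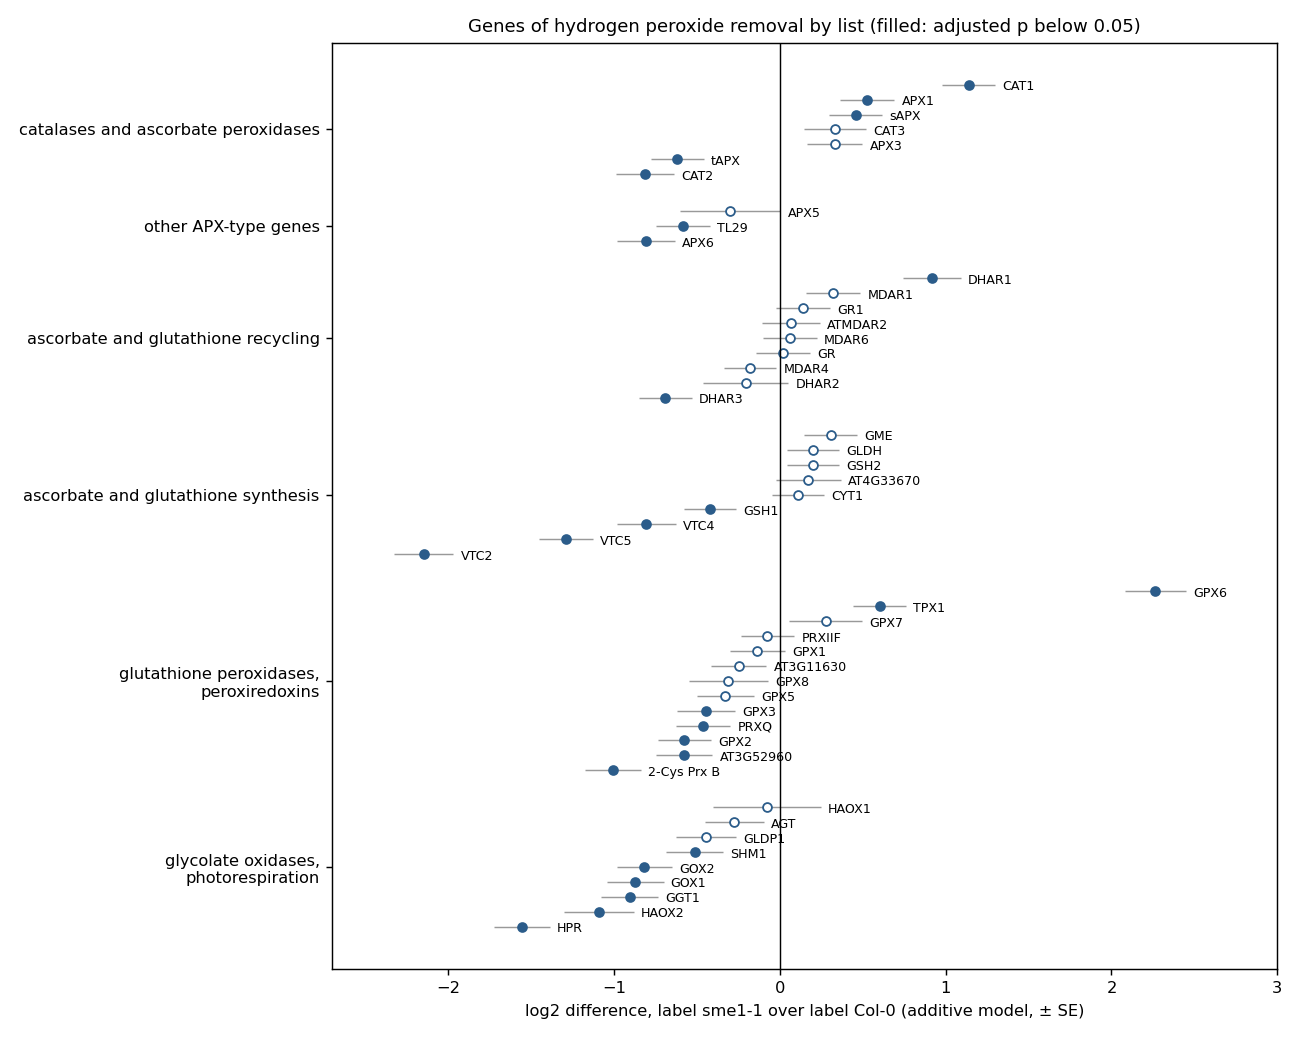
Log2 difference between the labels sme1-1 and Col-0 (horizontal axis, additive model, lines ± SE) for the members and 5 lists of genes of hydrogen peroxide metabolism, each point 1 gene; filled points have an adjusted p below 0.05. All 6 filled points of the photorespiration list and all 4 of the ascorbate and glutathione synthesis list lie left of 0, while CAT1 (1.14), DHAR1 (0.92) and GPX6 (2.27) lie furthest right in their lists.

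Of the 7 members tested, CAT1 was the one whose highest level was at least 2 times its lowest. The genes whose 4 levels ran most like those of CAT1 were AT4G21065, AHG11 and RABA1c, with root mean square differences of 0.0305, 0.0347 and 0.0414 in centred log2 level over 4 libraries. Within 0.1 of CAT1 lay 26 of 17211 genes, and 4 points give little power to tell patterns apart. RABA1c, a Rab GTPase gene, was read at 17.4 and 13.3 CPM in the libraries labelled sme1-1 at 4 °C and at 20 °C, against 8.27 and 5.56 CPM in those labelled Col-0.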

How the data were processed

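The 4 tables list uniquely mapped read counts per gene, gene length, the percent of that length covered by reads and RPKM, per the file headers. The authors deposited counts that are not normalized; TAIR10 is the genome build per the submitters' processing notes. For the aligner, the counter and the rule for unique reads, nothing is given in the sources used here. The deposited RPKM equals count over length and file total, within a tolerance of 1e-06. The coverage percent per the file headers was not used in any comparison. A gene missing from a table was a count of 0, with a limit of 3 counts.

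Counts were scaled to the file total. A mean of 1 CPM or more was required of genes compared, with a prior count of 2 in log2 ratios over all genes. Calls between 2 libraries needed 2-fold, with exact 95% intervals for counting error. The 95% intervals of ratios of ratios were approximate, from the normal distribution on the log scale, and also cover counting error only. The additive model used edgeR 4.0.16 with library sizes set to file totals and p-values adjusted by Benjamini-Hochberg across all genes compared. Calls were made below 0.05, and the common dispersion was 0.0213. The code was also run on simulated additive counts with no interaction and a single dispersion. Such counts follow the model, so that run cannot show that the model holds for these libraries. TMM factors and DESeq2 1.42.0 were alternatives. Symbols matched by gene code for 22861 of 23049 genes in the TAIR10.1 table; that AT2G18740 is SME1 is background knowledge. Promoter windows came from TAIR10.1 with its own annotation. R 4.3.3, Python 3.11.15 and scipy 1.17.1 were used.

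The members, gene lists and tests were chosen with earlier results of these data known. The rule for named genes was all members, up to 3 genes furthest from 0 in each list and comparison, and the 3 genes most like a member whose levels span 2-fold. Other list genes were named after their values were seen.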

Additional observations from a re-analysis of the deposited data

Results flagged for a closer look

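The ratio of 4 °C over 20 °C for CAT2 was 0.894 between the libraries labelled sme1-1 and 1.05 between those labelled Col-0, which lie on opposite sides of 1. For APX3 this ratio was 1.23 between the libraries labelled sme1-1 and 0.914 between those labelled Col-0. For CAT3 the ratio of sme1-1 over Col-0 was 1.63 at the label 4 °C and 0.973 at the label 20 °C. With 1 library on each side these differences could not be tested over replicates, and the counting intervals leave out biological spread.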

How the results depend on the processing

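No paired analysis was possible because each group holds 1 library, and for the same reason no library could be left out. At the label 4 °C, members at least 2-fold higher with sme1-1 numbered 1, and 0 under TMM factors, DESeq2's size factors or totals without the 10 most abundant genes. Those lower numbered 0, and 1 under the first 2 of these. At a fold of 1.5, 3 were higher and 2 lower at 4 °C, 2 lower at 20 °C and 1 higher for 4 °C over 20 °C in sme1-1. The pair labelled sme1-1 4 °C and Col-0 20 °C alone, added after seeing the data, gave 1 member (CAT1) higher and 0 lower, and 2044 and 1662 of all genes. Over all genes, a fold of 1.5 gave 4168 higher and 2992 lower at 4 °C (2009 and 1335 at 2-fold), 3332 and 2888 at 20 °C (1539 and 1210), 1788 and 1611 for 4 °C over 20 °C in sme1-1 (543 and 426), and 499 and 741 in Col-0 (137 and 134). Without the filter, 2283 were lower at 4 °C, and 2562 were higher and 2580 lower at 20 °C. For 4 °C over 20 °C, 1413 were higher and 1537 lower in sme1-1, and 737 and 1145 in Col-0. Of the 2-fold calls in Col-0, 39.2% were higher without the filter and 50.6% with it. The temperature label called 175 genes higher (110 in DESeq2) and 214 lower (103 with TMM factors, 106 in DESeq2). The genotype call for sAPX, log2 0.46, did not pass at 0.39 with TMM factors or in DESeq2. The other 6 members kept their side of the threshold for the genotype label under TMM factors, DESeq2 and no filter. The causes were not tested.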
